A study of Mus musculus with 36 samples.

Results

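The response of common dendritic cell progenitors (CDP) to 24 h of TGF-β1 was read from 6 arrays of a mouse time course of 36 arrays. The treated group, CDP 24 h, has 3 arrays of CDP cultured for 24 h with recombinant human TGF-β1 at 10 ng/ml. The comparison group has 3 arrays of untreated CDP, labelled 0 h. The cells of both groups were grown from mouse bone marrow in culture with cytokines and then isolated by FACS. Genotype, strain and age are not given in the labels. Multipotent progenitors (MPP), the precursors of CDP, were treated in the same way, with 3 arrays at 24 h and 3 untreated arrays, and CDP were also measured at 2, 4, 8 and 12 h. The times are those of the sample titles and of the study's methods. A protocol text in the labels gives 6 h in place of 8 h, so some doubt stays about that time. The replicates are biological by the study's account. Levels are log2 intensities of the Affymetrix Mouse Gene 1.0 ST array, each gene being represented by 1 probe set, and 19938 genes were tested with limma. Genes were called when they passed an adjusted p of 0.01 and differed by at least 1 log2 unit, and fold changes below are log2 values ± SE, CDP 24 h minus untreated CDP, with 3 arrays per group. Sets of 3 array values follow the order of replicates 1, 2 and 3. No untreated CDP arrays at 24 h were analysed here, so TGF-β1 and 24 h more in culture cannot be told apart in this comparison.

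TGF-β1 signals through the kinase receptors Tgfbr1 and Tgfbr2 to Smad2 and Smad3, which enter the nucleus with Smad4 and regulate genes, some of which encode inhibitors of the same pathway. CDP give rise to conventional and plasmacytoid dendritic cells (DC), which capture antigen, present it to T cells or secrete interferon. Langerhans cells, the DC of the epidermis, need TGF-β1 to form or remain there and hold on to keratinocytes through E-cadherin.

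The receptor genes Flt3 and Csf1r, which serve as markers of CDP, were present. Among other markers of CDP, Kit and Itgax were called higher in CDP 24 h (log2 fold changes of 2.79 and 1.91), and Cd34 was not called. Flt3, the receptor for the main DC growth factor, was 12.96, 13.20 and 12.90 in CDP 24 h, against 12.42, 12.40 and 12.28 in untreated CDP. Csf1r, the macrophage colony-stimulating factor receptor gene, was 12.48, 12.31 and 12.56 in CDP 24 h, against 12.75, 12.67 and 12.98 in untreated CDP. Both were among the bright genes on all 6 arrays and neither was called (fold changes 0.65 ± 0.10 and −0.35 ± 0.06). Genes of other lineages were of mixed level. The B cell factor genes Ebf1 and Pax5, the T cell receptor genes Cd3e and Cd3g, the NK receptor gene Ncr1 and the eosinophil granule genes Prg2 and Epx averaged at most 7.78 ± 0.11 in CDP 24 h and 7.65 ± 0.03 in untreated CDP (SD, n = 3), the level of Cd3e. Other genes known from these lineages were brighter: the B cell receptor signalling gene Cd79b averaged 11.17 in CDP 24 h and 12.24 in untreated CDP, the NK receptor gene Klrd1 9.31 in CDP 24 h and 11.19 in untreated CDP, the lymphocyte receptor gene Cd96 12.76 in CDP 24 h and 9.22 in untreated CDP and the eosinophil receptor gene Siglecf 12.08 in CDP 24 h and 9.11 in untreated CDP. Xist, the RNA of the inactive X chromosome, was 6.84, 13.71 and 13.74 in CDP 24 h, against 7.04, 13.60 and 13.64 in untreated CDP. Replicate 1 was low in both groups, so this transcript was balanced between them. Arrays of 1 group correlated at 0.993 or more in CDP 24 h and at 0.996 or more in untreated CDP.

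At 24 h 627 of 19938 genes were called, which is 3.14% of the genes tested. Of these 270 were higher (1.35%) and 357 lower (1.79%) in CDP 24 h than in untreated CDP, while the median fold change of all genes was 0.00. These 2 shares are the background for the shares of the gene lists below. The changes were large for some genes: 70 rose and 80 fell by 2 or more, and 19 rose and 25 fell by 3 or more. In 626 of the 627 called genes all 3 same-numbered pairs moved the same way, and the 2 groups did not overlap in 267 of the genes that rose and 353 of those that fell. The calls were made on these same arrays, so these counts follow largely from the call rule and are no further support. The shares over all genes were not counted. The same holds wherever groups of a called gene are said below not to overlap. The fit was repeated without each replicate number and without each of the 6 arrays, and 476 of the calls were made in every one of these 9 fits. The arrays hold bulk RNA, so fewer cells of a type and less RNA per cell cannot be told apart for any gene below.

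The largest rises were in genes of cell adhesion, G protein signalling and matrix. Cldn1, which encodes a tight junction claudin, was 12.99, 12.60 and 13.18 in CDP 24 h, against 6.76, 6.96 and 6.97 in untreated CDP. It rose by 6.02 ± 0.18 (65.1-fold, adjusted p = 1.87e-11). Gna14, a G protein alpha subunit gene, was 11.56, 11.68 and 11.71 in CDP 24 h, against 6.66, 6.59 and 6.48 in untreated CDP. Every treated array of both genes lay more than 4 log2 units above every untreated one.

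Itgae encodes the integrin αE chain (CD103), a receptor for E-cadherin, and was 11.94, 12.35 and 12.42 in CDP 24 h, against 7.25, 7.29 and 7.53 in untreated CDP (4.88 ± 0.16). Its ligand gene Cdh1, E-cadherin, was 12.54, 12.94 and 12.73 in CDP 24 h, against 8.33, 9.29 and 8.60 in untreated CDP (4.00 ± 0.24). Both ends of this adhesive pair were thus higher on every treated array, and untreated replicate 2 had the highest untreated level of Cdh1. Chad, which encodes the matrix protein chondroadherin, was 11.77, 11.74 and 11.17 in CDP 24 h, against 7.18, 7.07 and 7.14 in untreated CDP (4.43 ± 0.14). Ifnlr1, the interferon lambda receptor gene, was 11.38, 10.96 and 11.07 in CDP 24 h, against 7.31, 7.23 and 7.34 in untreated CDP (3.84 ± 0.14). Axl, a receptor tyrosine kinase that binds Gas6 on dying cells, was 12.02, 11.46 and 11.95 in CDP 24 h, against 7.77, 7.81 and 8.71 in untreated CDP (3.71 ± 0.28). The groups did not overlap in any of these, although Axl was higher on untreated replicate 3 than on the other untreated arrays.

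Pmepa1, an inhibitor of TGF-β signalling described with its pathway below, rose by 4.20 ± 0.23. The rest of the 15 largest rises lay between 3.22 ± 0.47 and 3.62 ± 0.14. They were Hepacam2, an adhesion molecule of the immunoglobulin family, Fam189a2 (3.55 ± 0.18), Cd96 (3.54 ± 0.13), a lymphocyte receptor for nectins, the potassium channel subunit gene Kcne3 (3.34 ± 0.17), the receptor gene Vipr1 for vasoactive intestinal peptide, the prostaglandin D synthase gene Hpgds (3.27 ± 0.15) and Ly6i, of the Ly6 surface protein family. Vipr1 has another probe set, at 0.55 ± 0.05, which was not called. Ly6i was 11.87, 12.36 and 12.22 in CDP 24 h, against 8.30, 8.24 and 10.25 in untreated CDP. Untreated replicate 3 stood between the groups, and the call was lost without replicate 2 (2.77).

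**Figure D1:**
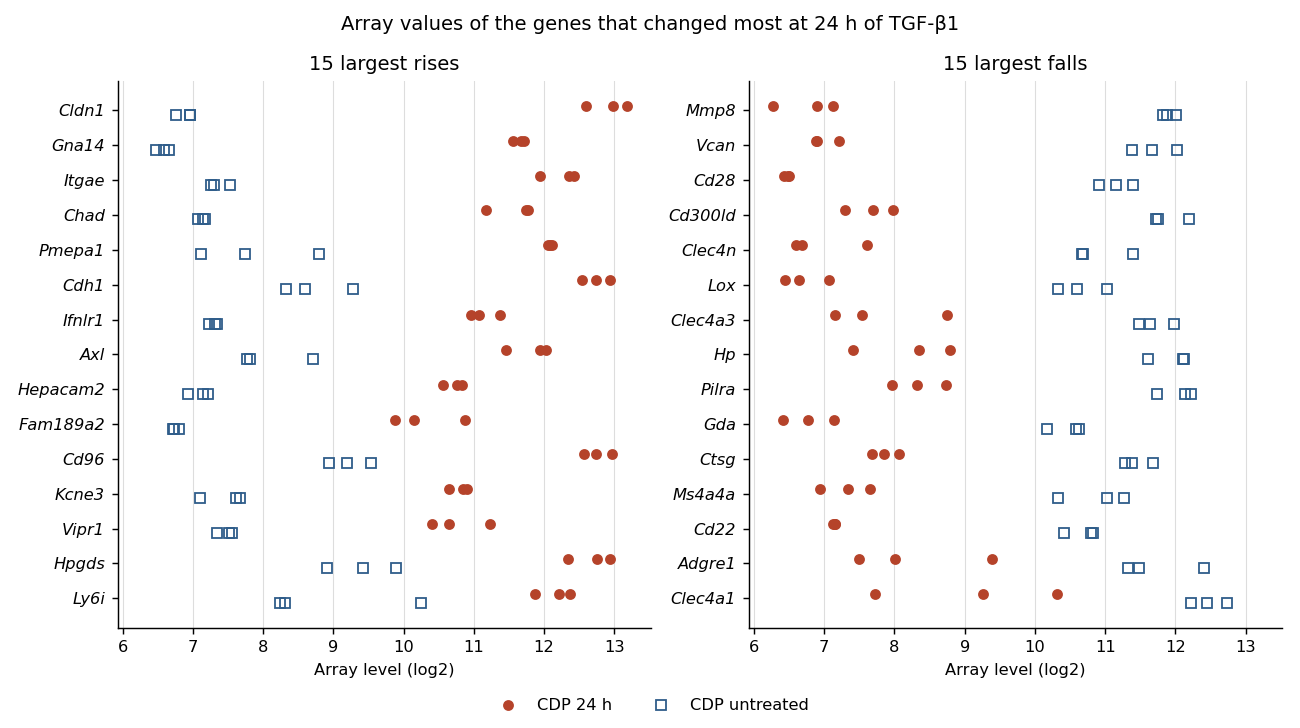
Array levels (x axis, log2) of the 15 genes that rose most and the 15 that fell most (y axis) on the 3 CDP 24 h arrays (filled circles) and the 3 untreated CDP arrays (open squares). The genes were picked by their change on these same arrays. The groups do not overlap in any of the 30 genes, and the widest gaps are those of Cldn1 and Gna14 among the rises and of Mmp8 and Cd28 among the falls.

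The largest falls were in genes of myeloid surface receptors, proteases and matrix. Mmp8, the neutrophil collagenase gene, was 6.27, 7.13 and 6.90 in CDP 24 h, against 11.89, 11.82 and 12.003 in untreated CDP. It fell by 5.14 ± 0.18 (35.2-fold lower, adjusted p = 1.17e-10). Cd28, better known as the costimulatory receptor of T cells, was 6.42, 6.50 and 6.48 in CDP 24 h, against 11.40, 11.15 and 10.91 in untreated CDP. It fell by 4.68 ± 0.10 (25.7-fold lower), and the 3 treated arrays were within 0.1 of each other.

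Vcan, which encodes the large matrix proteoglycan versican, was 6.89, 7.21 and 6.89 in CDP 24 h, against 11.66, 11.38 and 12.02 in untreated CDP and fell by 4.69 ± 0.12. Lox, the gene of the lysyl oxidase that cross-links collagen, was 6.64, 6.45 and 7.07 in CDP 24 h, against 10.61, 11.03 and 10.33 in untreated CDP and fell by 3.94 ± 0.17. Cd300ld, an activating receptor of myeloid cells, was 7.30, 7.69 and 7.98 in CDP 24 h, against 11.75, 11.72 and 12.20 in untreated CDP and fell by 4.23 ± 0.12. All 3 left a wide gap between the groups. Hp, the haptoglobin gene (−3.76 ± 0.20), Ctsg, the cathepsin G gene of granulocyte granules (−3.59 ± 0.10), Gda, the guanine deaminase gene (−3.69 ± 0.14), and Cd22, a sialic acid-binding inhibitory receptor of B cells (−3.54 ± 0.18), fell as well. The remaining genes among the 15 largest falls were the lectin genes Clec4n, Clec4a3 and Clec4a1, the paired receptor gene Pilra, Ms4a4a and the macrophage marker gene Adgre1, with fold changes of −3.95 ± 0.17 to −3.36 ± 0.37.

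Promoters of 3 genes that rose and 3 that fell are shown, picked by the size of their 24 h change among called genes with a promoter entry. They run from 250 bases before to 50 bases after the start site, on the gene's strand (RefSeq, GRCm38.p6). Itgae and Cd28 have none in the table used here. The build behind the array's own annotation is not given in the sources used here, so these positions are those of RefSeq alone. Capitals mark matches to the letters of a Smad box (CAGAC or GTCTG), an E-box (CAGGTG or CACCTG) and a PU.1 core (GAGGAAGT or ACTTCCTC), which were sought on both strands.
Cldn1, chr16:26371790-26372089, minus strand: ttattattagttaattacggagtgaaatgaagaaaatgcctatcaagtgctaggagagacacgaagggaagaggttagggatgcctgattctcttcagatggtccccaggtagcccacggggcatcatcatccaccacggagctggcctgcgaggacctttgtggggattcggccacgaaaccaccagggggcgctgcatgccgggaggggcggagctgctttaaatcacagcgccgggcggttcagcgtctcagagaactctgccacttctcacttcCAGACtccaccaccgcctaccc
Gna14, chr19:16435417-16435716, plus strand: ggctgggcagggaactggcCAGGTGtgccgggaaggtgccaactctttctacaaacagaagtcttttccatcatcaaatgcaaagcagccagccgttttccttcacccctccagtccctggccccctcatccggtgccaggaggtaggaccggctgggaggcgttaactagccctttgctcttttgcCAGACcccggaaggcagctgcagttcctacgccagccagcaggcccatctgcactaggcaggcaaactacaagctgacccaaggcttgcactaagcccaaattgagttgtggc
Chad, chr11:94564797-94565096, plus strand: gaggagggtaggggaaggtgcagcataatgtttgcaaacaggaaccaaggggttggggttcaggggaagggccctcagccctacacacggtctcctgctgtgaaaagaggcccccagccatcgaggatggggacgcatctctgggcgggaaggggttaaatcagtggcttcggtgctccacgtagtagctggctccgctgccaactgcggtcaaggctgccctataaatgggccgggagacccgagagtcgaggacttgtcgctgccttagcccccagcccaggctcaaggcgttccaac
Mmp8, chr9:7558179-7558478, plus strand: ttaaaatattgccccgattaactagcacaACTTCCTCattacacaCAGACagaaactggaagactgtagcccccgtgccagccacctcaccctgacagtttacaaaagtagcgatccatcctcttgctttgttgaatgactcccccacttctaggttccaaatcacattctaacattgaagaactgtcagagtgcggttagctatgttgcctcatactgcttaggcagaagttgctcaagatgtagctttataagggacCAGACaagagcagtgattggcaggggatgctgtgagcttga
Vcan, chr13:89742463-89742762, minus strand: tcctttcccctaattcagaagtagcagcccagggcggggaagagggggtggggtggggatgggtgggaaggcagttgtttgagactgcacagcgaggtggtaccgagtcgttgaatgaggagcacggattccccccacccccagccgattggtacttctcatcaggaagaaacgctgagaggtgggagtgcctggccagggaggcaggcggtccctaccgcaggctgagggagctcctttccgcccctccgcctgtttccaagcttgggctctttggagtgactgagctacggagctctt
Cd300ld, chr11:114989837-114990136, minus strand: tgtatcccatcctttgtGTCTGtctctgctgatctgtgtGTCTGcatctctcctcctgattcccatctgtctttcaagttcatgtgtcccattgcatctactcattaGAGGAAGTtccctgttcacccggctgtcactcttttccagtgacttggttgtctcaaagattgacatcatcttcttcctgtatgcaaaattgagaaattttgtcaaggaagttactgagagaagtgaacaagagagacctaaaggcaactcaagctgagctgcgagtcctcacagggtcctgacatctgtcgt

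Cldn1 held 1 Smad box and Gna14 held 1 Smad box and 1 E-box, while Mmp8 and Cd300ld each held 2 Smad boxes and 1 PU.1 core. Chad and Vcan held no match to these letters in this window. Over all genes the short Smad box is common: of 15563 genes with a promoter it was found in 51.0% of the 208 that rose, 43.7% of the 268 that fell and 48.6% of all. The PU.1 core was found in 4.81% of those that rose, 5.22% of those that fell and 2.74% of all, and the E-box in 22.6%, 14.9% and 19.2% in the same order. The Egr element GCGNGGGCG was found in 13.5%, 8.58% and 8.21%, the AP-1 element TGANTCA in 8.65%, 9.70% and 6.97%, and the Runx element TGTGGTTT in 1.44%, 4.10% and 1.58%. The Smad palindrome GTCTAGAC was found in 0 promoters that rose, 0 that fell and 0.231% of all, and the C/EBP palindrome TTGCGCAA in 0, 0.373% and 0.219%. The promoters differed in composition as well, with a median GC content of 62.8% in genes that rose, 56.3% in those that fell and 57.7% in all, and a median of 19, 11 and 15 CpG. The share of the Egr element was highest in genes that rose, as was GC content. In genes that rose the shares of the Smad box (51.0% against 48.6%) and the E-box (22.6% against 19.2%) were near those of all genes. The share of the Runx element was highest in genes that fell (11 promoters, against 3 that rose). The PU.1 and AP-1 shares were above those of all genes in both sets. The PU.1 core was in 10 promoters that rose and 14 that fell, the AP-1 element in 18 and 26. The part of GC content in these shares was not tested. A match is a match of letters and not a site shown to be bound.

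Within the TGF-β pathway both signalling receptors and 6 inhibitors rose and Smad3 fell. Of 14 measured receptors of the family 2 rose (14.3%) and 0 fell. Tgfbr1, the type I receptor gene, was 12.30, 12.46 and 12.25 in CDP 24 h, against 10.16, 10.46 and 10.08 in untreated CDP (2.10 ± 0.09, 4.29-fold), and Tgfbr2, the type II receptor gene, was 12.07, 11.68 and 11.93 in CDP 24 h, against 10.65, 10.83 and 10.70 in untreated CDP (1.16 ± 0.10). The groups did not overlap for either receptor. The co-receptor gene Eng was at 0.62 ± 0.08 and the type I receptor gene Acvrl1 at −0.71 ± 0.09, neither past the fold threshold.

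Of 8 Smad genes 1 rose and 1 fell (12.5% each). Smad3 was 7.71, 7.75 and 7.87 in CDP 24 h, against 9.72, 9.73 and 9.74 in untreated CDP, a fall of 1.96 ± 0.08 (3.88-fold lower, adjusted p = 6.20e-10). Smad7, which blocks the type I receptor, was 10.67, 10.76 and 10.87 in CDP 24 h, against 8.89, 9.28 and 8.92 in untreated CDP (1.74 ± 0.08). The Smad3 arrays differed by less than 0.2 within each group. Smad2, which shares the role of Smad3 as a receptor-activated Smad, was at −0.07 ± 0.05 and the common partner gene Smad4 at 0.04 ± 0.06, and neither was called.

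Of 19 feedback inhibitors 6 rose and 0 fell (31.6% against 1.35% of all genes), with a list median of 0.42. Pmepa1, which keeps Smad2 and Smad3 from the receptor, was 12.09, 12.06 and 12.11 in CDP 24 h, against 7.74, 8.79 and 7.12 in untreated CDP (4.20 ± 0.23). The untreated arrays of Pmepa1 spread over more than 1.6 log2 units, whereas the treated ones lay within 0.1. Spsb1, which directs the type II receptor to degradation, rose by 2.62 ± 0.12, Ldlrad4, a relative of Pmepa1, by 2.11 ± 0.07, the ubiquitin ligase gene Smurf1 by 1.83 ± 0.14 and the corepressor gene Skil by 1.79 ± 0.12. Ski (0.77 ± 0.09) and Smurf2 (0.90 ± 0.06) were below the fold threshold. Of 37 ligands and activators 0 rose and 1 fell (2.70%), the thrombospondin gene Thbs1 (−1.87 ± 0.23), whose protein frees latent TGF-β. Tgfb1 was 12.74, 12.84 and 12.80 in CDP 24 h, against 12.54, 12.75 and 12.61 in untreated CDP (0.16 ± 0.05). Tgfb3 was 9.09, 11.79 and 8.89 in CDP 24 h, against 8.33, 8.51 and 8.09 in untreated CDP, and with a fold change of 1.61 ± 0.43 and an adjusted p of 0.0102 it was not called, 24 h replicate 2 standing far above the other treated arrays.

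A part of the epithelial junction genes rose strongly. Of 54 measured members 10 rose and 0 fell (18.5%), all 10 in every leave-out fit, while the list median was 0.03. Besides Cldn1 and Cdh1, Epcam, an adhesion molecule of epithelia and Langerhans cells, was 8.67, 8.95 and 9.02 in CDP 24 h, against 6.32, 6.44 and 6.33 in untreated CDP (2.52 ± 0.08). Dsp, the desmosome protein desmoplakin, was 9.45, 10.01 and 9.58 in CDP 24 h, against 7.33, 7.44 and 7.32 in untreated CDP (2.32 ± 0.11). F11r, which encodes junctional adhesion molecule A, was 12.70, 12.65 and 12.69 in CDP 24 h, against 9.94, 10.43 and 10.70 in untreated CDP (2.33 ± 0.11), and Tjp1, the scaffold ZO-1 of tight junctions, was 8.05, 8.67 and 7.95 in CDP 24 h, against 6.24, 6.32 and 6.16 in untreated CDP (1.98 ± 0.13). The groups were apart in all of these. St14, which encodes the membrane protease matriptase, rose by 2.50 ± 0.09, and Spint1, which encodes its inhibitor, by 2.31 ± 0.23.

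Among 17 genes of Langerhans cells 8 rose and 0 fell (47.1%), with a list median of 0.78. The list mean was 10.55, 10.72 and 10.66 in CDP 24 h, against 8.97, 9.17 and 9.16 in untreated CDP. The list includes Cldn1, Itgae, Cdh1, Axl and Epcam. Itgae is also counted among the genes of conventional DC below and is not particular to Langerhans cells. Ccr6, the receptor for the skin chemokine Ccl20, was 10.35, 10.35 and 9.92 in CDP 24 h, against 7.84, 8.32 and 7.41 in untreated CDP (2.34 ± 0.18), and Runx3, a transcription factor that Langerhans cells need, was 13.71, 13.78 and 13.65 in CDP 24 h, against 12.23, 12.59 and 11.99 in untreated CDP (1.44 ± 0.07). Cd207, the gene of langerin that defines mature Langerhans cells, was 6.03, 6.15 and 6.11 in CDP 24 h, against 6.10, 6.18 and 6.09 in untreated CDP (−0.03 ± 0.06). This defining marker was dim on all 6 arrays. The aryl hydrocarbon receptor gene Ahr, also on the list, was 11.33, 11.57 and 11.65 in CDP 24 h, against 10.38, 10.57 and 10.53 in untreated CDP (1.02 ± 0.13), and its call was lost without untreated replicate 2 (0.96), 24 h replicate 3 (0.94) or replicate 3 (0.97). Its fold change against 0 h had been −1.78 at 2 h, −1.47 at 4 h, −0.87 at 8 h and −0.28 at 12 h.

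Regulators and targets of epithelial to mesenchymal transition moved in opposite ways. Zeb1 was 10.55, 10.33 and 10.74 in CDP 24 h, against 9.27, 9.49 and 9.31 in untreated CDP (1.19 ± 0.13) and its relative Zeb2 was 9.65, 9.07 and 10.02 in CDP 24 h, against 11.51, 11.37 and 11.59 in untreated CDP (−1.91 ± 0.14), both of them repressors of the E-cadherin gene. Fn1, the fibronectin gene, was 8.78, 8.75 and 8.43 in CDP 24 h, against 11.73, 11.35 and 11.23 in untreated CDP and fell by 2.79 ± 0.12 (6.91-fold lower). These 3 were the called ones of 16 measured (6.25% higher and 12.5% lower).

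Integrins moved both ways. Of 26 genes 3 rose and 2 fell (11.5% and 7.69%). Itgax (CD11c), the integrin chain used to define DC, was 12.76, 12.77 and 12.82 in CDP 24 h, against 10.92, 11 and 10.68 in untreated CDP (1.91 ± 0.08), and Itgb5 was 12.63, 12.63 and 12.67 in CDP 24 h, against 11.20, 11.18 and 11.09 in untreated CDP (1.49 ± 0.12). The collagen-binding chain gene Itga1 fell by 1.38 ± 0.09 and Itgb3, the beta chain of the platelet and vitronectin receptors, by 1.25 ± 0.12. Of 79 matrix protein genes 1 rose (1.27%), Chad, and 7 fell (8.86%), with the laminin gene Lamc1 (−1.96 ± 0.10) and Emilin2 (−1.78 ± 0.13) after Vcan and Fn1. Of 88 matrix enzymes and their inhibitors 1 rose (1.14%), Adamts6 (1.46 ± 0.15), and 6 fell (6.82%). After Mmp8 and Lox these were the metalloprotease genes Mmp19 (−2.24 ± 0.18) and Adam8 (−1.86 ± 0.15), the urokinase receptor gene Plaur (−1.59 ± 0.10) and the inhibitor gene Timp1 (−1.18 ± 0.12).

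**Figure D2:**
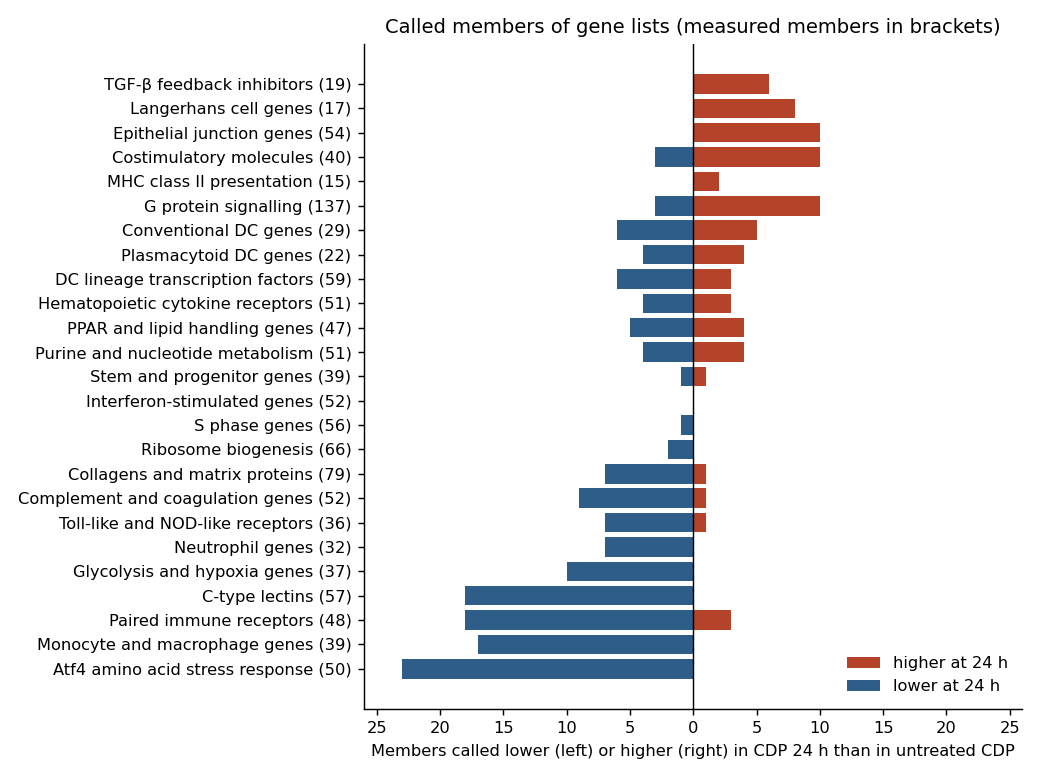
Number of measured members (x axis) of 25 gene lists (y axis, number measured in brackets) called higher (right of 0) or lower (left of 0) in CDP 24 h than in untreated CDP. Atf4, monocyte, paired receptor and C-type lectin lists hold the most falls (23, 17, 18 and 18), and junction, costimulatory and G protein lists the most rises (10 each).

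Genes of the DC subsets moved both ways. Of 29 genes of conventional DC 5 rose and 6 fell (17.2% and 20.7%), of which 3 and 2 held in every leave-out fit. Besides Itgae and Itgax the riser that held was Wdfy4, which acts in cross-presentation (1.19 ± 0.08). The falls that held were those of the fatty acid receptor gene Ffar2 (−1.99 ± 0.20) and the acid amidase gene Naaa (−1.33 ± 0.09). The DC factor gene Zbtb46 (0.71 ± 0.07), Irf4 (0.97 ± 0.16) and Batf3 (0.41 ± 0.07) were below the fold threshold. Xcr1 (0.06 ± 0.08), Clec9a (−0.67 ± 0.10) and Cd209a (−0.76 ± 0.06), known from conventional DC, were not called. Xcr1 was dim, at 6.65 in CDP 24 h and 6.59 in untreated CDP.

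Of 22 genes of plasmacytoid DC 4 rose and 4 fell (18.2% each, against 1.35% and 1.79% of all genes). Siglech, a receptor that marks these cells, was 12.001, 12.12 and 11.80 in CDP 24 h, against 8.93, 9.04 and 8.31 in untreated CDP (3.22 ± 0.14). Cd7 rose by 1.11 ± 0.14 and the sodium pump subunit gene Atp1b1 by 1.64 ± 0.21. The endosomal RNA receptor gene Tlr7 was 7.15, 6.84 and 7.34 in CDP 24 h, against 9.15, 8.84 and 9.82 in untreated CDP (−2.16 ± 0.29), and Cox6a2 fell by 1.38 ± 0.08. The plasmacytoid factor gene Spib was 8.49, 7.44 and 8.83 in CDP 24 h, against 9.18, 9.58 and 9.34 in untreated CDP (−1.11 ± 0.29, adjusted p = 0.00961), with the lowest level on 24 h replicate 2, and its call was lost without untreated replicate 1 (−1.24), untreated replicate 2 (−0.85), untreated replicate 3 (−1.24), 24 h replicate 1 (−1.24), 24 h replicate 2 (−0.76), replicate 1 (−1.32), replicate 2 (−0.60) or replicate 3 (−1.41). The plasmacytoid master factor gene Tcf4 (−0.46 ± 0.05) and Irf8 (−0.12 ± 0.06) were not called. Markers of plasmacytoid cells thus stood on both sides.

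Of 59 transcription factors of DC development 3 rose and 6 fell (5.08% and 10.2%). The vitamin D receptor gene Vdr was 11.89, 11.84 and 12.07 in CDP 24 h, against 9.69, 9.96 and 9.64 in untreated CDP (2.17 ± 0.10), next to Runx3 and Ahr. Nfil3 fell by 1.67 ± 0.13, Maf by 1.63 ± 0.21, Pparg, a nuclear receptor of lipid handling, by 1.32 ± 0.11 and Cebpb, a myeloid factor, by 1.28 ± 0.14, beside Zeb2 and Spib. Id2, an inhibitor of E proteins that DC and Langerhans cells need, was 14.03, 13.88 and 14.10 in CDP 24 h, against 13.12, 13.22 and 13.32 in untreated CDP (0.78 ± 0.05, adjusted p = 4.46e-08). This change was under the fold threshold. Id1 was at −0.07 ± 0.07 and Id3 at 0.54 ± 0.20.

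Of 39 stem and progenitor genes 1 rose and 1 fell (2.56% each, against 1.35% and 1.79% of all genes). Kit, the stem cell factor receptor gene, was 11.70, 10.79 and 11.78 in CDP 24 h, against 8.40, 8.86 and 8.63 in untreated CDP (2.79 ± 0.26). All treated arrays lay above all untreated ones, with 24 h replicate 2 the lowest of the treated. Igf2bp3, a fetal RNA-binding protein gene, fell by 1.07 ± 0.08. The factor gene Gata2 (0.93 ± 0.12), Cd34 (0.60 ± 0.10) and Flt3 were above 0, and Myb (−0.87 ± 0.09), Myc (−0.77 ± 0.09) and Meis1 (−0.22 ± 0.10) below 0, none of them called.

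Of 51 cytokine receptor genes 3 rose and 4 fell (5.88% and 7.84%). Il7r, the interleukin 7 receptor gene of lymphoid cells, was 11.16, 11.35 and 11.38 in CDP 24 h, against 8.90, 8.71 and 9.64 in untreated CDP (2.22 ± 0.13), beside Kit and Ifnlr1. Csf3r, the receptor gene for the neutrophil growth factor G-CSF, was 8.77, 8.16 and 8.93 in CDP 24 h, against 10.89, 10.70 and 11.26 in untreated CDP (−2.33 ± 0.09, 5.03-fold lower). The groups were apart in both. Il18rap fell by 1.38 ± 0.09 and Il27ra by 1.16 ± 0.08.

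Antigen presentation and costimulation rose in part. Of 15 genes of MHC class II presentation 2 rose (13.3%), and 13 did not pass, with a list median of 0.49. The class II transactivator gene Ciita was 11.84, 11.56 and 11.83 in CDP 24 h, against 9.94, 10.59 and 10.80 in untreated CDP (1.30 ± 0.17), and H2-Oa, whose product restrains peptide loading, was 11.85, 11.59 and 12.03 in CDP 24 h, against 10.51, 10.60 and 10.91 in untreated CDP (1.15 ± 0.08). The class II chain gene H2-Ab1 was at 0.74 ± 0.11 and H2-DMa, of the peptide loader, at 0.90 ± 0.07. Of 24 class I genes 0 were called.

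Of 40 costimulatory and coinhibitory genes 10 rose and 3 fell (25% and 7.5%), and 5 of the rises and all 3 falls held in every leave-out fit. Those 5 were Cd96, the inhibitory receptor gene Havcr2 or Tim-3 (10.26, 10.29 and 10.51 in CDP 24 h, against 7.998, 8.11 and 7.98 in untreated CDP, 2.32 ± 0.16), its galectin ligand gene Lgals9 (1.41 ± 0.07), the adhesion receptor gene Cd84 (1.74 ± 0.10) and Cd80, a ligand of Cd28 and Ctla4 (11.27, 10.53 and 11.50 in CDP 24 h, against 9.54, 9.62 and 10.21 in untreated CDP, 1.31 ± 0.24). The falls were those of Cd28, the checkpoint gene Vsir or VISTA (−1.61 ± 0.22) and Ly9 (−1.57 ± 0.07). Cd86, the other Cd28 ligand gene, was 11.45, 11.47 and 12.10 in CDP 24 h, against 10.10, 10.66 and 10.78 in untreated CDP (1.16 ± 0.19), and its call was lost without replicate 1 (1.07).

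One treated array differed from the others in activation genes. The mean of 28 NF-κB pathway genes and targets was 11.16, 10.25 and 11.21 in CDP 24 h, against 10.31, 10.46 and 10.64 in untreated CDP. That of 21 genes of migratory and mature DC was 9.72, 8.88 and 10.01 in CDP 24 h, against 8.79, 8.90 and 9.37 in untreated CDP. In both lists 24 h replicate 2 lay within the untreated range or below it, while 24 h replicates 1 and 3 lay above it, so the groups overlapped. Cd40, the receptor through which T cells activate DC, was 12.55, 11.61 and 12.42 in CDP 24 h, against 9.57, 10.03 and 10.50 in untreated CDP (2.16 ± 0.49), and its call was lost without untreated replicate 1 (2.01), untreated replicate 3 (2.18), 24 h replicate 1 (1.83), replicate 1 (1.75) or replicate 2 (2.45). Ccl22 was 10.51, 7.40 and 10.70 in CDP 24 h, against 6.96, 7.41 and 8.33 in untreated CDP (1.97 ± 0.61, adjusted p = 0.0253), Cd83 11.42, 8.62 and 11.28 in CDP 24 h, against 8.95, 9.15 and 10.07 in untreated CDP (1.05 ± 0.52) and Relb 10.38, 9.32 and 10.49 in CDP 24 h, against 9.04, 9.14 and 9.24 in untreated CDP (0.93 ± 0.25), and none of these was called. Ccr7, the receptor that guides mature DC to lymph nodes, was 10.77, 10.09 and 11.27 in CDP 24 h, against 10.71, 10.92 and 11.41 in untreated CDP (−0.30 ± 0.16). Marcksl1 was the member of this list whose call held in every leave-out fit (1.74 ± 0.18). Without 24 h replicate 2 the comparison with untreated CDP called 302 genes higher and 392 lower, against 270 and 357 with it.

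Interferon-stimulated genes overlapped between the groups too, with list means of 9.69, 9.26 and 10.09 in CDP 24 h, against 9.10, 9.02 and 10.30 in untreated CDP. Of 52 members limma called 0 in either direction, and the list median was 0.24. Untreated replicate 3 had the highest mean of the 6 arrays.

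**Figure D3:**
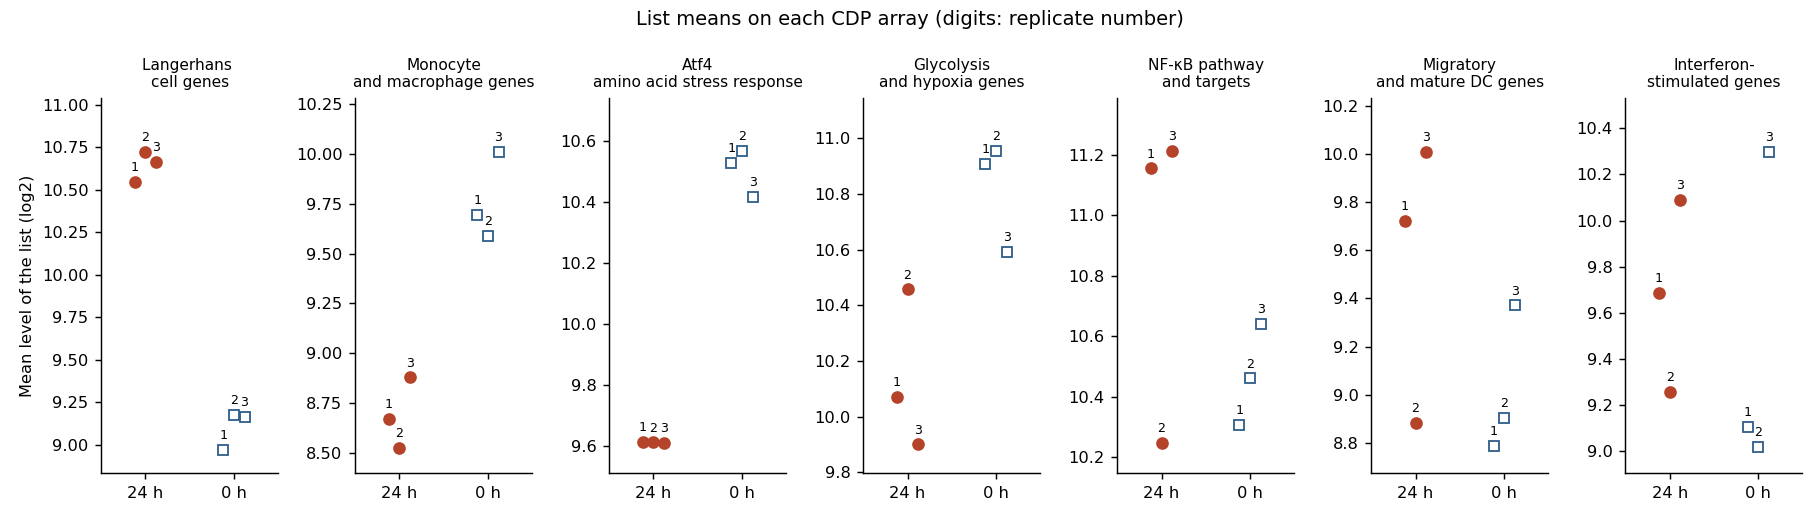
Mean log2 level (y axis) of the members of 7 gene lists on each of the 3 CDP 24 h arrays (filled circles) and the 3 untreated CDP arrays (open squares), with the replicate number at each point. The groups are apart for the Langerhans, monocyte, Atf4 and hypoxia lists and overlap for the NF-κB, migratory DC and interferon lists, where 24 h replicate 2 is the lowest treated array.

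Secreted factors and their receptors moved both ways. Of 36 chemokines 3 rose and 2 fell (8.33% and 5.56%, against 1.35% and 1.79% of all genes), and 1 of the rises held in every leave-out fit. Cxcl16, a membrane-bound chemokine, was 12.62, 10.94 and 12.94 in CDP 24 h, against 9.23, 9.52 and 10.67 in untreated CDP (2.36 ± 0.33). Ccl6 was 8.34, 7.82 and 8.51 in CDP 24 h, against 11.39, 10.83 and 11.20 in untreated CDP and fell by 2.92 ± 0.13, and Ccl9 was 10.61, 8.41 and 10.79 in CDP 24 h, against 11.81, 11.68 and 11.99 in untreated CDP (−1.89 ± 0.33). The Cxcl16 and Ccl9 levels on 24 h replicate 2 stood apart from the other treated arrays. Il12a, the p35 chain gene of interleukin 12, was 7.92, 8.34 and 7.68 in CDP 24 h, against 10.52, 10.10 and 10.07 in untreated CDP and fell by 2.25 ± 0.12 (4.76-fold lower), whereas Il12b, its p40 partner, was 9.89, 6.76 and 9.99 in CDP 24 h, against 6.59, 6.54 and 7.09 in untreated CDP (2.14 ± 0.55) and its call was lost without untreated replicate 1 (2.10), untreated replicate 3 (1.81), 24 h replicate 1 (1.49), 24 h replicate 3 (2.01), replicate 1 (1.56) or replicate 3 (1.76). Il12b on 24 h replicate 2 was within the untreated range. The growth factor gene Pdgfb rose by 2.10 ± 0.25 and Vegfa, of vessel growth, fell by 1.77 ± 0.13. Of 58 interleukins and growth factors 2 rose and 4 fell (3.45% and 6.9%). Of 43 genes of the TNF family 3 rose and 3 fell (6.98% each). There Tnfsf8, the CD30 ligand gene, rose by 2.15 ± 0.20 and the lymphotoxin gene Ltb by 1.57 ± 0.15, and the death receptor gene Tnfrsf21 was 8.51, 8.52 and 8.74 in CDP 24 h, against 10.74, 10.67 and 11.07 in untreated CDP, a fall of 2.24 ± 0.12. Of 38 chemokine, complement and lipid chemoattractant receptors 4 rose and 3 fell (10.5% and 7.89%). The risers after Ccr6 included the nucleotide receptor gene P2ry13 (1.37 ± 0.12), and the anaphylatoxin receptor gene C3ar1 was 9.67, 8.36 and 10.74 in CDP 24 h, against 11.50, 11.55 and 12.32 in untreated CDP, a fall of 2.20 ± 0.24.

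Of 137 genes of G protein and small GTPase signalling 10 rose and 3 fell (7.3% and 2.19%). Next to Gna14, its relative Gna15 rose by 1.90 ± 0.08, Rgs12, which switches G proteins off, was 11.89, 11.91 and 11.83 in CDP 24 h, against 8.67, 9.30 and 8.73 in untreated CDP (2.98 ± 0.12), and the Ras activator gene Rasgrp3 was 10.98, 10.30 and 11.21 in CDP 24 h, against 8.69, 8.55 and 8.39 in untreated CDP (2.28 ± 0.16). The GTPase gene Gem was 8.71, 8.96 and 8.94 in CDP 24 h, against 10.69, 11.09 and 10.11 in untreated CDP, a fall of 1.76 ± 0.22, and the Ras inhibitor gene Rasa3 fell by 1.72 ± 0.13. Both receptors for vasoactive intestinal peptide rose, since Vipr2 was 9.74, 8.85 and 9.53 in CDP 24 h, against 6.61, 6.53 and 6.73 in untreated CDP (2.75 ± 0.14) as well. Lpar3, a receptor for lysophosphatidic acid, was 9.62, 9.31 and 10.06 in CDP 24 h, against 7.26, 7.31 and 7.43 in untreated CDP (2.33 ± 0.12), and Gpr65, an acid-sensing receptor, was 7.06, 6.55 and 7.65 in CDP 24 h, against 9.69, 9.57 and 10.27 in untreated CDP (−2.75 ± 0.37). The purinergic channels went opposite ways: P2rx5 was 10.05, 11.08 and 10.64 in CDP 24 h, against 7.59, 8.17 and 7.96 in untreated CDP (2.68 ± 0.21) and P2rx7 was 8.73, 9.18 and 8.79 in CDP 24 h, against 10.24, 10.18 and 10.47 in untreated CDP (−1.40 ± 0.14). Dusp6, the ERK phosphatase gene, rose by 1.80 ± 0.11.

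Genes of lipid mediators and lipid handling split. Of 47 measured 4 rose and 5 fell (8.51% and 10.6%). Alox5, the 5-lipoxygenase gene that starts leukotriene synthesis, was 9.86, 11.09 and 10.04 in CDP 24 h, against 6.95, 7.21 and 7.22 in untreated CDP (3.20 ± 0.19, 9.19-fold), and Hpgds, which makes prostaglandin D2, was 12.34, 12.94 and 12.75 in CDP 24 h, against 8.91, 9.43 and 9.90 in untreated CDP. Alox15, a lipoxygenase of macrophages, was 6.98, 7.07 and 6.99 in CDP 24 h, against 8.23, 8.23 and 8.37 in untreated CDP (−1.27 ± 0.10). The lipoprotein lipase gene Lpl was 7.48, 7.22 and 8.12 in CDP 24 h, against 10.96, 10.73 and 11.18 in untreated CDP and fell by 3.35 ± 0.20 (10.2-fold lower). Pla2g7, which degrades platelet-activating factor, fell by 2.03 ± 0.23 and the fatty acid carrier gene Fabp5 by 1.53 ± 0.08, together with Pparg, the receptor that regulates several of these genes. Mgll, the monoacylglycerol lipase gene, rose by 1.65 ± 0.17. The cholesterol ester hydrolase gene Nceh1 rose by 2.33 ± 0.13, and Pltp, a phospholipid transfer protein gene, fell by 2.74 ± 0.15. In cholesterol and fatty acid synthesis 1 of 39 rose and 1 fell (2.56% each, against 1.35% and 1.79% of all genes). Fads3 rose (1.31 ± 0.14), and the desaturase gene Scd1 fell (11.01, 11.02 and 9 in CDP 24 h, against 12.27, 12.03 and 11.14 in untreated CDP, −1.47 ± 0.17). On untreated and 24 h replicate 3 Scd1 was lower than on the other arrays of its group.

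Many monocyte and macrophage genes fell. Of 39 measured 0 rose and 17 fell (43.6% against 1.79% of all genes), with a list median of −0.86, and 34 members were below 0. The list mean was 8.67, 8.52 and 8.88 in CDP 24 h, against 9.69, 9.59 and 10.01 in untreated CDP. Adgre1, the F4/80 gene, was 8.01, 7.50 and 9.39 in CDP 24 h, against 11.48, 11.32 and 12.40 in untreated CDP (−3.44 ± 0.17), and F13a1, a coagulation factor gene of monocytes, was 7.01, 7.43 and 6.88 in CDP 24 h, against 10.87, 10.64 and 9.45 in untreated CDP (−3.22 ± 0.23). The Fc receptor genes Fcgr4 (−2.95 ± 0.13) and Fcgr3 (7.84, 8.09 and 8.001 in CDP 24 h, against 10.73, 10.66 and 10.90 in untreated CDP, −2.79 ± 0.27) and the mannose receptor gene Mrc1 (−2.33 ± 0.20) fell too. The groups were apart in all of these, and 24 h replicate 3 was the highest treated array for Adgre1. Outside the lists, 4 genes were picked after their falls were seen. The acute phase gene Saa3 was 9.99, 7.90 and 10.24 in CDP 24 h, against 12.52, 11.997 and 12.70 in untreated CDP (−3.03 ± 0.33), Lbp, which carries lipopolysaccharide, was 7.66, 7.56 and 7.30 in CDP 24 h, against 10.24, 10.04 and 9.92 in untreated CDP (−2.56 ± 0.10), Aoah, an enzyme that detoxifies it, was 7.53, 6.57 and 8.07 in CDP 24 h, against 10.29, 10.04 and 11.02 in untreated CDP (−3.06 ± 0.20), and the ceruloplasmin gene Cp fell by 2.93 ± 0.26. Cd14, the co-receptor for lipopolysaccharide, was 8.90, 7.49 and 9.67 in CDP 24 h, against 10.06, 9.70 and 11.004 in untreated CDP (−1.57 ± 0.34), and its call was lost without untreated replicate 2 (−1.40), 24 h replicate 2 (−1.35) or replicate 2 (−1.25).

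Of 32 neutrophil genes 0 rose and 7 fell (21.9%), with a median of 0.00, and all 7 held in every leave-out fit. After Mmp8, Hp, Ctsg and Csf3r these included Lrg1 (6.69, 7.14 and 6.71 in CDP 24 h, against 9.78, 9.48 and 9.18 in untreated CDP, −2.64 ± 0.19) and the elastase inhibitor gene Serpinb1a (−1.91 ± 0.13). Other neutrophil genes, chosen after their values were seen, were low or moderate in both groups. The median level of all genes was 7.90 in CDP 24 h and 7.92 in untreated CDP. The granule gene Ltf was 7.50, 7.52 and 7.08 in CDP 24 h, against 7.31, 7.23 and 7.05 in untreated CDP, Camp 7.75, 7.64 and 7.57 in CDP 24 h, against 7.66, 7.67 and 7.78 in untreated CDP and the surface protein gene Ly6g 6.37, 6.65 and 6.50 in CDP 24 h, against 6.52, 6.32 and 6.39 in untreated CDP. Elane was 8.57, 8.36 and 8.48 in CDP 24 h, against 8.70, 8.21 and 8.23 in untreated CDP (0.09 ± 0.12) and Mpo 8.83, 7.81 and 8.65 in CDP 24 h, against 8.84, 8.21 and 8.23 in untreated CDP (0.00 ± 0.19), and S100a8 was 7.67, 7.59 and 6.53 in CDP 24 h, against 7.43, 7.12 and 6.96 in untreated CDP. None of these 6 was called. The list also holds bright genes: the granule protease gene Prtn3 averaged 11.02 in CDP 24 h and 12.38 in untreated CDP, and Ctsg 7.86 in CDP 24 h and 11.45 in untreated CDP.

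C-type lectins, which bind carbohydrates or act as NK receptors, gave 0 rises and 18 falls of 57 measured (31.6%), 12 of them in every leave-out fit. The 4 largest falls were those of Clec4 genes. Clec4n, the dectin 2 gene for fungal mannans, was 6.69, 6.60 and 7.61 in CDP 24 h, against 10.68, 10.68 and 11.40 in untreated CDP, Clec4a3 7.54, 7.16 and 8.75 in CDP 24 h, against 11.49, 11.64 and 11.98 in untreated CDP and Clec4a2 6.71, 6.07 and 7.84 in CDP 24 h, against 9.78, 9.64 and 10.41 in untreated CDP (−3.07 ± 0.19). Clec7a, the dectin 1 gene for beta-glucan, was 7.50, 6.64 and 8.01 in CDP 24 h, against 9.79, 9.43 and 10.24 in untreated CDP (−2.44 ± 0.11), and Clec4a1 was 9.27, 7.73 and 10.32 in CDP 24 h, against 12.23, 12.45 and 12.73 in untreated CDP. The groups did not overlap in any of these, and the treated arrays of Clec4a1 spread over more than 2.5 log2 units with 24 h replicate 2 the lowest. Genes of this cluster resemble each other, and whether probes were shared between them was not tested.

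Paired immune receptors, whose members activate or inhibit myeloid cells, gave 3 rises and 18 falls of 48 (6.25% and 37.5%). The 3 rises were all sialic acid-binding lectins. Siglecf, known from eosinophils, was 12.21, 11.93 and 12.11 in CDP 24 h, against 9.11, 8.96 and 9.27 in untreated CDP (2.97 ± 0.12), and Siglece was 10.36, 10.06 and 10.61 in CDP 24 h, against 8.64, 8.46 and 9.26 in untreated CDP (1.56 ± 0.14), beside Siglech. Cd22, of the same family, was 7.12, 7.16 and 7.15 in CDP 24 h, against 10.80, 10.82 and 10.41 in untreated CDP. Pilra was 8.32, 7.96 and 8.73 in CDP 24 h, against 12.14, 11.74 and 12.23 in untreated CDP and its activating counterpart Pilrb1 7.43, 7.46 and 7.58 in CDP 24 h, against 10.74, 10.52 and 11.08 in untreated CDP (−3.29 ± 0.16), so that both sides of this pair fell.

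Of 36 Toll-like and NOD-like receptor genes and partners 1 rose and 7 fell (2.78% and 19.4%). Tlr8 was 6.51, 6.71 and 7.02 in CDP 24 h, against 9.84, 9.56 and 10.65 in untreated CDP, a fall of 3.27 ± 0.19 (9.63-fold lower), next to Tlr7, the other sensor of single-stranded RNA. Tlr1, for bacterial lipopeptides, was 8.96, 7.52 and 9.28 in CDP 24 h, against 10.22, 10.26 and 10.88 in untreated CDP (−1.87 ± 0.26), and Ly96, the MD-2 partner of Tlr4, was 8.55, 8.22 and 9.25 in CDP 24 h, against 10.42, 10.17 and 10.90 in untreated CDP (−1.82 ± 0.10). Tlr4 itself was at −1.16 ± 0.15, and its call was lost without 24 h replicate 2 (−0.97). Tlr9, the sensor of CpG DNA, was 12.04, 11.44 and 12.06 in CDP 24 h, against 11.61, 11.73 and 11.73 in untreated CDP (0.15 ± 0.14), with overlapping groups.

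Among complement and coagulation genes 1 of 52 rose (1.92%), the thrombin receptor gene F2r (9.80, 9.81 and 9.90 in CDP 24 h, against 7.75, 7.82 and 8.04 in untreated CDP, 1.97 ± 0.14), and 9 fell (17.3%), F10 (−1.82 ± 0.22), C1qb (−1.49 ± 0.22) and the protein S gene Pros1, whose product binds the receptors Tyro3 and Mertk (−1.46 ± 0.13), among them. Of 57 serpins, cystatins and related inhibitors 0 rose and 4 fell (7.02%): Slpi (−2.05 ± 0.10), Serpinb1a, Wfdc17 (−1.55 ± 0.06) and Cst7 (−1.07 ± 0.06). Of 45 tetraspanins and Ms4a genes 2 rose (4.44%), Cd82 (1.40 ± 0.16) and Tspan33 (1.37 ± 0.21), and 5 fell (11.1%). Among those, Cd81, a tetraspanin of many cell membranes, was 9.36, 9.07 and 9.39 in CDP 24 h, against 12.05, 11.89 and 11.84 in untreated CDP, a fall of 2.65 ± 0.10, and Ms4a4a was 7.33, 6.94 and 7.65 in CDP 24 h, against 11.03, 10.33 and 11.26 in untreated CDP.

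Genes of the amino acid stress response, the programme of the transcription factor Atf4, fell in large number. Of 50 measured members 0 rose and 23 fell (46%), 18 of them in every leave-out fit, and all 50 were below 0, with a median of −0.89. The list mean was 9.61, 9.61 and 9.61 in CDP 24 h, against 10.53, 10.57 and 10.42 in untreated CDP. Bcat1, which transaminates branched-chain amino acids, was 8.23, 8.33 and 8.10 in CDP 24 h, against 11.01, 10.88 and 10.96 in untreated CDP (−2.72 ± 0.08). Atf3 was 8.75, 8.62 and 8.97 in CDP 24 h, against 10.92, 10.90 and 11.10 in untreated CDP (−2.19 ± 0.12), and Phgdh, the first enzyme of serine synthesis, was 9.68, 9.58 and 9.48 in CDP 24 h, against 11.33, 11.12 and 11.14 in untreated CDP (−1.62 ± 0.07). Nupr1 (−2.08 ± 0.12) and the glutathione-degrading enzyme gene Chac1 (−1.73 ± 0.10) fell as well. The treated arrays lay close together in these genes and apart from the untreated ones. Of 78 amino acid and monocarboxylate transporter genes 1 rose and 8 fell (1.28% and 10.3%), the glycine transporter gene Slc6a9 (−1.56 ± 0.07) and Slc1a4 (−1.13 ± 0.08) among the falls.

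Glycolysis and hypoxia genes fell in 10 of 37 members (27%), and 0 rose, with a median of −0.54. The list mean was 10.07, 10.46 and 9.90 in CDP 24 h, against 10.91, 10.95 and 10.59 in untreated CDP. The stress gene Ndrg1 was 9.02, 9.83 and 9.23 in CDP 24 h, against 11.84, 11.72 and 11.52 in untreated CDP (−2.33 ± 0.18), the lactate exporter gene Slc16a3 10.18, 11.36 and 9.61 in CDP 24 h, against 12.18, 12.35 and 11.68 in untreated CDP (−1.68 ± 0.23), and the glucose transporter gene Slc2a3 9.76, 9.82 and 9.66 in CDP 24 h, against 11.11, 11.62 and 10.47 in untreated CDP (−1.32 ± 0.14). For Ndrg1 and Slc16a3 24 h replicate 2 was the highest treated array, and for all 3 untreated replicate 3 was the lowest untreated one.

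In purine metabolism 4 of 51 rose and 4 fell (7.84% each). Xdh, which oxidizes hypoxanthine and xanthine to uric acid, was 7.32, 7.23 and 7.40 in CDP 24 h, against 9.77, 9.46 and 10.05 in untreated CDP (−2.45 ± 0.07), Gda, the enzyme that turns guanine to xanthine, was 7.13, 6.42 and 6.77 in CDP 24 h, against 10.62, 10.17 and 10.59 in untreated CDP, and the adenosine deaminase gene Ada was 8.33, 8.61 and 8.46 in CDP 24 h, against 9.69, 9.56 and 9.72 in untreated CDP (−1.19 ± 0.09). All 3 lie on the path of purine breakdown, but so does the next gene, Ampd3, which rose. Ampd3, the AMP deaminase gene, was 10.56, 10.47 and 10.45 in CDP 24 h, against 8.64, 8.71 and 8.65 in untreated CDP (1.82 ± 0.13), and Entpd1 (CD39), which degrades extracellular ATP, was 11.28, 11.30 and 11.30 in CDP 24 h, against 9.44, 9.65 and 9.71 in untreated CDP (1.70 ± 0.08). The mitochondrial adenylate kinase gene Ak4 was 8.20, 9.54 and 7.16 in CDP 24 h, against 11.71, 11.57 and 10.29 in untreated CDP (−2.89 ± 0.35), with its other probe set at −0.81 ± 0.18 and not called.

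Few genes of cell division and growth passed the fold threshold, although most were below 0. Of 56 S phase genes 0 rose and 1 fell (1.79%, as of all genes), 55 were below 0, and the median was −0.35. Their list mean was 10.58, 10.56 and 10.59 in CDP 24 h, against 10.95, 10.93 and 10.89 in untreated CDP, with the groups apart. Of 60 genes of G2 and mitosis 0 were called and 50 were below 0 (median −0.18). Of 66 genes of ribosome biogenesis 0 rose and 2 fell (3.03%), and 61 were below 0 (median −0.42). The proliferation marker gene Mki67 was 13.15, 13.15 and 13.03 in CDP 24 h, against 13.30, 13.33 and 13.22 in untreated CDP (−0.18 ± 0.05). Its change was far under the fold threshold. Of 43 apoptosis genes 2 rose and 3 fell (4.65% and 6.98%). Bcl2, which protects from apoptosis, was 11.29, 11.46 and 11.21 in CDP 24 h, against 12.74, 12.84 and 12.40 in untreated CDP (−1.34 ± 0.07), and its pro-apoptotic relative Bid was 9.39, 9.94 and 9.60 in CDP 24 h, against 11.23, 11.45 and 11.57 in untreated CDP (−1.77 ± 0.12). Notch1 was 9.18, 10.13 and 9.17 in CDP 24 h, against 11.11, 11.05 and 11.13 in untreated CDP (−1.60 ± 0.21), the called one of 35 Notch pathway genes (2.86%). The haem oxygenase gene Hmox1 fell by 1.55 ± 0.17, the called one of 33 genes of the unfolded protein and heat shock response (3.03%). Against 1.79% of all genes, these shares rest on 1 gene each and say little about either list.

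Genes of other blood lineages were called in small numbers from small lists. The shares called were above those of all genes (1.35% higher and 1.79% lower). Mast cell, eosinophil and erythroid lists gave rises alone and the B cell list falls alone. Of 26 genes of mast cells and basophils 2 rose (7.69%), Kit and the carboxypeptidase gene Cpa3 (8.12, 7.54 and 7.80 in CDP 24 h, against 6.86, 6.32 and 6.20 in untreated CDP, 1.36 ± 0.09), with list means of 7.12, 6.99 and 7.05 in CDP 24 h, against 6.85, 6.84 and 6.85 in untreated CDP. The basophil and mast cell protease genes Mcpt8 (6.15 in CDP 24 h and 6.61 in untreated CDP) and Mcpt2 (5.66 in CDP 24 h and 5.54 in untreated CDP) were dim and not called. Of 20 B cell genes 0 rose and 3 fell (15%), after Cd22 the scaffold gene Bank1 (6.50, 6.53 and 6.48 in CDP 24 h, against 9.30, 9.18 and 8.96 in untreated CDP, −2.64 ± 0.14). Of 44 genes of T, NK and innate lymphoid cells 4 rose and 2 fell (9.09% and 4.55%). Klrd1 was 9.24, 8.62 and 10.05 in CDP 24 h, against 11.05, 11.25 and 11.28 in untreated CDP (−1.89 ± 0.25). List means were 7.23, 7.06 and 7.15 in CDP 24 h, against 7.40, 7.44 and 7.40 in untreated CDP for B cell genes and 7.59, 7.53 and 7.58 in CDP 24 h, against 7.49, 7.53 and 7.54 in untreated CDP for T, NK and innate lymphoid genes. Of 7 eosinophil genes 1 rose (14.3%), Siglecf, with list means of 7.31, 7.24 and 7.19 in CDP 24 h, against 6.86, 6.86 and 6.91 in untreated CDP. Of 16 erythroid genes 1 rose (6.25%), Tspan33, and of 17 megakaryocyte genes 1 rose (5.88%), F2r, and 2 fell (11.8%), Thbs1 and Itgb3. The call of Cd79b (−1.07 ± 0.08) was lost without 24 h replicate 3 (−0.99) or replicate 3 (−0.97). The part of other cells in these changes was not tested.

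Some of the 24 h changes were still under way after 12 h. In the direct comparison of CDP 24 h with CDP 12 h 86 genes were called (0.431% of 19938), 30 higher and 56 lower. Without 24 h replicate 2 these were 61 and 65, and without replicate 1 they were 15 and 34. Of the genes called against both 0 h and 12 h, Fam189a2 rose most in this interval (2.72 ± 0.18, limma adjusted p = 7.03e-07), with means of 10.30 ± 0.51 in CDP 24 h and 7.58 ± 0.35 in CDP 12 h (SD, n = 3). Alox5 rose by 2.00 ± 0.19, Kit by 1.86 ± 0.26, Cldn1 by 1.77 ± 0.18, Epcam by 1.61 ± 0.08 and Itgae by 1.58 ± 0.16. Kit had been at 8.63 ± 0.23 at 0 h, 8.65 ± 0.29 at 4 h, 8.97 ± 0.39 at 8 h, 9.56 ± 0.32 at 12 h and 11.42 ± 0.55 at 24 h. Most of its change thus came in the last interval. Alox5 went through 7.13 ± 0.15 at 0 h, 7.69 ± 0.26 at 8 h, 8.33 ± 0.43 at 12 h and 10.33 ± 0.66 at 24 h.

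Among the genes called lower against both times, the largest falls of this interval were those of Mmp8, which fell by 2.64 ± 0.18, Fn1 by 2.06 ± 0.12, Hacd4, an enzyme gene of very long-chain fatty acids, by 1.81 ± 0.14, Pilra by 1.77 ± 0.09, Cyp4f18, which degrades leukotriene B4, by 1.76 ± 0.11 and Cd81 by 1.71 ± 0.10. Cyp4f18 had been above 0 h at 8 h (0.86) and 12 h (0.75) before it was at −1.01 ± 0.11 at 24 h, a call that was lost without untreated replicate 2 (−0.98), 24 h replicate 2 (−0.91) or replicate 2 (−0.90). Fn1 was at 11.44 ± 0.26 at 0 h, 11.72 ± 0.34 at 4 h, 10.71 ± 0.26 at 12 h and 8.65 ± 0.19 at 24 h. Pmepa1 (0.05 ± 0.23), Skil (−0.01 ± 0.12), Smad7 (0.07 ± 0.08), Chad (−0.07 ± 0.14) and Vcan (−0.23 ± 0.12) were not called between 12 and 24 h.

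**Figure D4:**
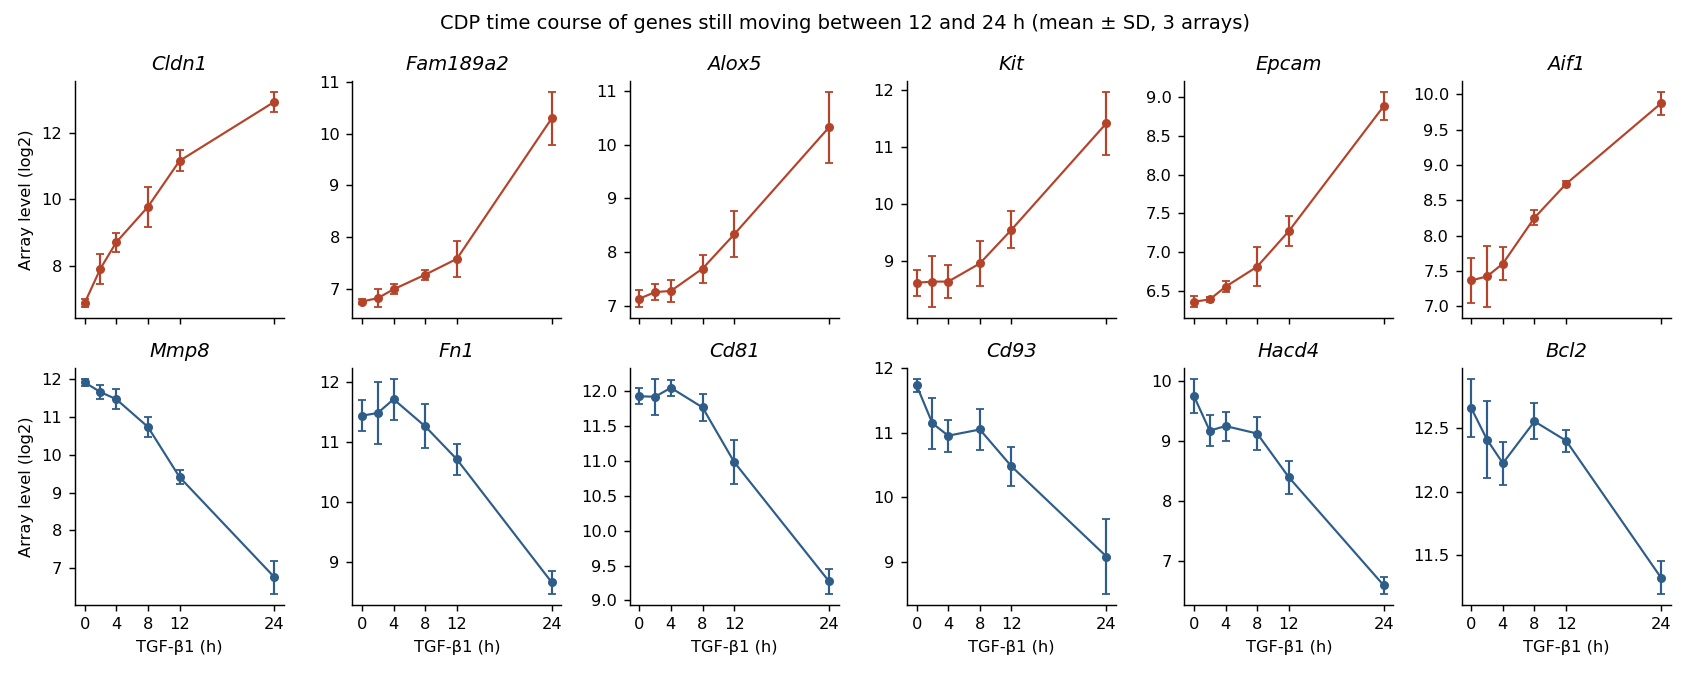
Mean log2 level ± SD of 3 CDP arrays (y axis) at 0, 2, 4, 8, 12 and 24 h of TGF-β1 (x axis) for 6 genes that rose (upper row) and 6 that fell (lower row) between 12 and 24 h. Cldn1 climbs over the whole course, whereas Fam189a2, Alox5, Kit and Epcam gain most of their rise, and Fn1 and Bcl2 most of their fall, after 12 h.

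The difference between the CDP and the MPP change was tested directly, as the CDP change minus the MPP change. It was called for 369 genes (1.85% of 19938), 144 with a higher and 225 with a lower change in CDP. Cldn1 rose by 6.02 ± 0.18 in CDP and by 1.98 ± 0.13 in MPP, a difference of 4.04 ± 0.24 (adjusted p = 6.98e-12). Gna14 changed by 5.07 ± 0.11 in CDP and 1.85 ± 0.11 in MPP, Ifnlr1 by 3.84 ± 0.14 and 0.83 ± 0.09, Fam189a2 by 3.55 ± 0.18 and 0.40 ± 0.06, and Cdh1 by 4.00 ± 0.24 and 1.04 ± 0.13, in the same order. Ly6i was at 3.22 ± 0.47 in CDP and −0.16 ± 0.38 in MPP. Of the 627 genes called in CDP these 6 had the largest positive differences, from 2.96 ± 0.29 to 4.04 ± 0.24. Kit, with 2.79 ± 0.26 in CDP and −0.14 ± 0.05 in MPP, differed by 2.93 ± 0.28, and its mean was 11.42 ± 0.55 in CDP and 11.16 ± 0.10 in MPP at 24 h and 8.63 ± 0.23 in CDP and 11.30 ± 0.10 in MPP at 0 h (SD, n = 3 each). Of these 4 groups Kit was low in untreated CDP alone.

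Cd22 changed by −3.54 ± 0.18 in CDP and 0.08 ± 0.06 in MPP, a difference of −3.62 ± 0.20, Ctsg by −3.59 ± 0.10 and −0.16 ± 0.04 (−3.43 ± 0.11), Tlr8 by −3.27 ± 0.19 and −0.17 ± 0.09 (−3.10 ± 0.23), Mmp8 by −5.14 ± 0.18 and −2.13 ± 0.17 (−3.01 ± 0.27), Hp by −3.76 ± 0.20 and −0.93 ± 0.13 (−2.83 ± 0.26) and Gda by −3.69 ± 0.14 and −0.94 ± 0.06 (−2.75 ± 0.16). The untreated levels differed for some of these genes as well. Cd22 was 7.14 ± 0.02 in CDP and 7.003 ± 0.07 in MPP at 24 h and 10.68 ± 0.23 in CDP and 6.92 ± 0.09 in MPP at 0 h. Smad3 differed as well, by −1.56 ± 0.12. For Chad (−0.46 ± 0.16), Vcan (−0.07 ± 0.21), Pmepa1 (0.07 ± 0.28), Cd96 (−0.01 ± 0.18) and Kcne3 (−0.15 ± 0.21) the difference was not called.

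**Figure D5:**
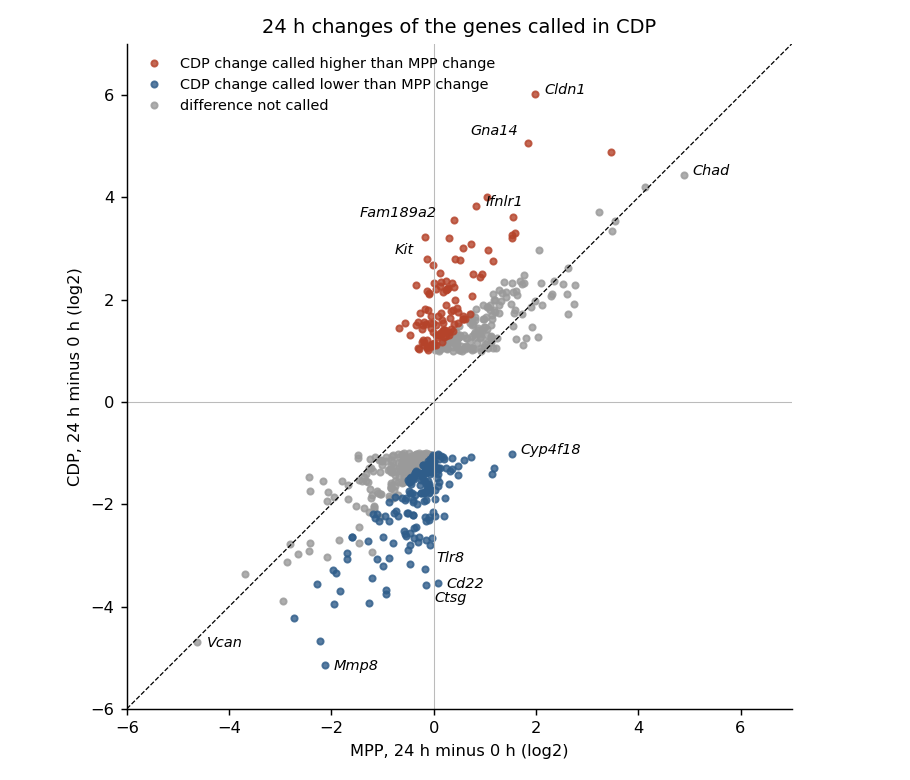
Change after 24 h of TGF-β1 in CDP (y axis, log2) and in MPP (x axis, log2) for the 627 genes called in CDP, with red and blue points where the difference was called and grey points where it was not. The dashed line marks equal changes. Cldn1 and Gna14 lie far above the line and Mmp8, Cd22 and Ctsg far below it, while Chad and Vcan lie close to it.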

How the data were processed

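The authors deposited 1 series table of log2 expression values, 1 column for each of the 36 Affymetrix Mouse Gene 1.0 ST arrays, and the submitters' processing notes name Affymetrix Power Tools and RMA, which corrects background, quantile-normalizes the arrays and summarizes probes. The genome build is not given in the sources used here. Of 35556 probe sets 21789 carried a single gene symbol, 1621 several and 12146 none. Each of 19938 genes was represented by the probe set with the highest mean over all 36 arrays, which for 999 genes was a choice among several. Intensities near background compress fold changes, and the number of arrays limits the precision.

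R 4.3.3 and its package limma 3.58.1 fitted linear models (two-sided moderated tests, Benjamini-Hochberg adjustment over all genes) to the 18 CDP arrays with the replicate number as a block, and to all 36 arrays, with the number within cell type as a block, for the difference between CDP and MPP. The numbers come from the sample titles, and deviations from the group means of same-numbered 24 h and 0 h arrays correlated at 0.297, 0.374 and 0.481, while the lowest of all same-numbered CDP pairs, other times included, was −0.128. Genes were called when they passed an adjusted p of 0.01 and differed by at least 1 log2 unit. The fits were tested on simulated data. Alternatives were no block, other sets of arrays, another variance prior, a filter on dim genes, mean probe sets, median centring, 2 other call rules and leaving out arrays.

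Genes named are the 15 largest rises and falls, up to 6 called members in each direction of each gene list, members of TGF-β, DC and progenitor lists, and the 6 largest values each way in the other comparisons. St14, Spint1, Vipr2, Lpar3, Gpr65, Nceh1, Pltp, Saa3, Lbp, Aoah and Cp were chosen after their values were seen. So were the uncalled markers of neutrophils and the dim markers of other cells. The comparison, members and lists were all chosen with earlier results of these data known, so lists have counts and medians and no test. Promoters are from RefSeq (GRCm38.p6), the first entry being used for 2628 genes with several.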

Additional observations from a re-analysis of the deposited data

Results flagged for a closer look

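The 24 h change differed between CDP and MPP by the test of the difference itself in 144 genes with a higher and 225 genes with a lower change in CDP than in MPP (limma, adjusted p under 0.01 and a log2 difference of 1 or more). Among the genes called in CDP the largest positive differences, CDP change minus MPP change, were 4.04 for Cldn1, 3.38 for Ly6i, 3.23 for Gna14, 3.16 for Fam189a2, 3.01 for Ifnlr1 and 2.96 for Cdh1. The largest negative ones were −3.62 for Cd22, −3.43 for Ctsg, −3.10 for Tlr8, −3.01 for Mmp8, −2.83 for Hp and −2.75 for Gda.

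Outside the genes, 13767 probe sets with no single gene symbol were tested in the same way, and 112 of them were called higher and 85 lower in CDP 24 h than in untreated CDP.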

How the results depend on the processing

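The counts of called genes kept within 1.5 times of 627 (CDP 24 h against untreated CDP), 86 (against CDP 12 h) and 369 (CDP against MPP change) under most alternatives, and of the 627 genes called against untreated CDP 0 changed sign in any fit of that comparison. The call rule moved them most. At an adjusted p under 0.05 with no minimum fold they were 5421 (2267 higher, 3154 lower), 1864 (566 and 1298) and 2992 (948 and 2044). With limma's treat test against a log2 fold change of 1, at an adjusted p under 0.05, they were 282 (132 and 150), 8 (2 and 6) and 113 (43 and 70). When arrays were left out they ranged from 575 to 694 (234 to 302 higher, 335 to 392 lower), from 49 to 126 (15 to 61 and 34 to 65) and from 319 to 420 (111 to 173 and 208 to 247), the first count being lowest without replicate 1 and highest without 24 h replicate 2.

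Without the replicate block they were 578 (254 and 324), 63 (22 and 41) and 300 (115 and 185), and 26 of the values of named genes lost their call. All 578 genes were called with the block as well. Without CDP 2 h replicate 3, whose interferon-stimulated genes were the highest of the 36 arrays with a mean of 11.70, they were 636, 96 and 378, an alternative chosen after seeing the data. Over all named values and alternatives 9542 stayed on the same side of the threshold, 338 lost the call and 124 gained it. The signal over background limits the dim genes: the table holds no detection calls, so fold changes of genes that are dim in 1 group may be compressed. The number of arrays, 3 per group, limits the precision.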
